A study of Zea mays with 8 samples.

Results

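The 10 genes described here make starch in maize (Zea mays). They were taken by gene ID from a table of 39604 genes: sh2, bt2, bt1, wx1, ss1, du1, ae1, sbe1, sbe2a and su1. RNA was sequenced from anthers, which bear the pollen in the tassel. The plants grew in the field. The study set homozygous hda108 mutants, which carry a mutation in a histone deacetylase gene, beside wild type (WT), and anthers were taken at a post-meiotic and at a mitotic stage. Each of the 4 groups had 2 libraries, each from anthers pooled over 3 tassels. The labels give neither the kind of mutation nor the plants' age.

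Starch is built in plastids from ADP-glucose. ADP-glucose pyrophosphorylase (AGPase) makes that sugar nucleotide, starch synthases add its glucose to growing chains, branching enzymes create branch points, and isoamylase-type debranching enzymes trim misplaced branches. In cereal endosperm much of the AGPase works in the cytosol and the Bt1 transporter carries ADP-glucose into the plastid. Most of these genes were found through maize kernels with altered starch. Maize pollen also fills with starch as it matures, and waxy pollen, which lacks the enzyme of wx1, is classically told from normal pollen by its reddish iodine stain.

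The deposited values are FPKM, fragment numbers corrected for transcript length and library size, so levels can be set side by side between genes. The table gives 1 value per gene and group. No spread between libraries could be computed, no difference below has a replicate check, and no p-value is given. The call rule is a gap of at least 2 in log2(FPKM + 1), which is 4-fold for abundant genes, and "above" and "below" only order the values. Of all genes 24360 reached 1 FPKM in at least 1 group and are the background, and 9 of the 10 starch genes did so. Sums of FPKM ranged from 505427 in hda108 mitotic to 1284185 in WT mitotic anthers. The gene HDA108 (GRMZM2G136067) itself measured 12.3 and 4.10 FPKM in post-meiotic WT and hda108 anthers and 6.43 and 4.30 FPKM in mitotic ones, below WT at both stages as deposited, though the mitotic difference turned from -0.49 to 0.66 log2 after rescaling. Because of the unequal sums, differences are also given after every group was rescaled to a sum of 1000000.

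AGPase comes first in the pathway. sh2, the gene of the large subunit (GRMZM2G429899, chromosome 3, 216495980 to 216505345, B73 RefGen_v3), measured 0.597 FPKM in post-meiotic WT anthers and 0.770 FPKM in post-meiotic hda108 anthers, against 1.28 and 1.53 FPKM in the mitotic groups. It was near the bottom of the background genes, above 4.92% to 19.3% of them. bt2, the gene of the small subunit (GRMZM2G068506, chromosome 4, 58979525 to 58985686), measured 15.3 FPKM in post-meiotic WT, 8.82 FPKM in post-meiotic hda108, 14.8 FPKM in mitotic WT and 11.7 FPKM in mitotic hda108 anthers, above 50.7% to 67.7% of the background genes. The 2 subunits were thus far from equal. bt2 had 25.6 times the FPKM of sh2 in WT post-meiotic anthers, 11.5 times in hda108 post-meiotic and in WT mitotic anthers, and 7.63 times in hda108 mitotic anthers. A ratio within a group is free of a scaling factor common to its genes. Quantile normalization, which gives the groups 1 common distribution, is no such factor, and with it the ratio was 24.2, 13.9, 9.19 and 7.57 in post-meiotic WT, post-meiotic hda108, mitotic WT and mitotic hda108 anthers. The sh2 values lay close to 1 FPKM, so the ratio depends on small values. With 1 FPKM added to both genes, sh2 was at 0.0981, 0.180, 0.145 and 0.200 of bt2 in that order of groups.

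The transporter gene bt1 (GRMZM2G144081, chromosome 5, 112964228 to 112966353) was listed at 0 in 3 groups and at 0.0748 FPKM in hda108 post-meiotic anthers, and it alone missed the 1 FPKM minimum. Whether the start of these positions counts from 0 or 1 was not stated by the authors.

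wx1 encodes granule-bound starch synthase, which makes amylose (GRMZM2G024993, chromosome 9, 23267683 to 23271612), and it was the most abundant of the 10 in every group. It measured 897 FPKM in post-meiotic WT, 243 FPKM in post-meiotic hda108, 628 FPKM in mitotic WT and 183 FPKM in mitotic hda108 anthers. Both WT values lay above both mutant values. Its rank was 155 among the background genes of WT post-meiotic anthers and 399 in hda108, and 321 and 358 at the mitotic stage.

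Of the soluble synthases, ss1 (GRMZM2G129451, chromosome 9, 17640521 to 17651342) measured 57.9, 25.6, 67.1 and 60.7 FPKM in that order of groups. As deposited the low value stood in hda108 post-meiotic anthers, and the other 3 lay close together. After every group was rescaled to an equal sum they were 54.1, 36.5, 52.2 and 120 in the same order, with hda108 mitotic anthers highest. du1, the gene of starch synthase III (GRMZM2G141399, chromosome 10, 59516233 to 59527812), measured 5.68 FPKM in post-meiotic WT and 6.03 FPKM in post-meiotic hda108 anthers, against 2.46 and 4.74 FPKM at the mitotic stage. Here WT mitotic anthers had the lowest value.

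All 3 branching enzyme genes were clearly represented. ae1, the gene of branching enzyme IIb (GRMZM2G032628, chromosome 5, 168492138 to 168509225), measured 117 FPKM in post-meiotic WT, 92.9 FPKM in post-meiotic hda108, 60.9 FPKM in mitotic WT and 37.4 FPKM in mitotic hda108 anthers. Both post-meiotic values lay above both mitotic ones. sbe2a, the gene of branching enzyme IIa (GRMZM2G073054, chromosome 2, 59216709 to 59226937), measured 42.6 FPKM in post-meiotic WT and 25.9 FPKM in post-meiotic hda108 anthers, against 40.2 and 25.04 FPKM at the mitotic stage as deposited.

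sbe1, the gene of branching enzyme I (GRMZM2G088753, chromosome 5, 63346022 to 63352952), measured 32.5 FPKM in post-meiotic WT, 19.8 FPKM in post-meiotic hda108, 21.3 FPKM in mitotic WT and 27.0 FPKM in mitotic hda108 anthers. Its values are less certain than those of the other genes. The RefSeq table gives its ID to 2 genes, together with the ID of a neighbour, GRMZM2G088737, which had 3.86 to 5.76 FPKM. su1, the gene of the isoamylase-type debranching enzyme (GRMZM2G138060, chromosome 4, 41396389 to 41405179), measured 7.02 FPKM in post-meiotic WT and 4.29 FPKM in post-meiotic hda108 anthers, against 2.34 and 1.92 FPKM at the mitotic stage. As for ae1, both of its post-meiotic values were the higher ones.

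**Figure D1:**
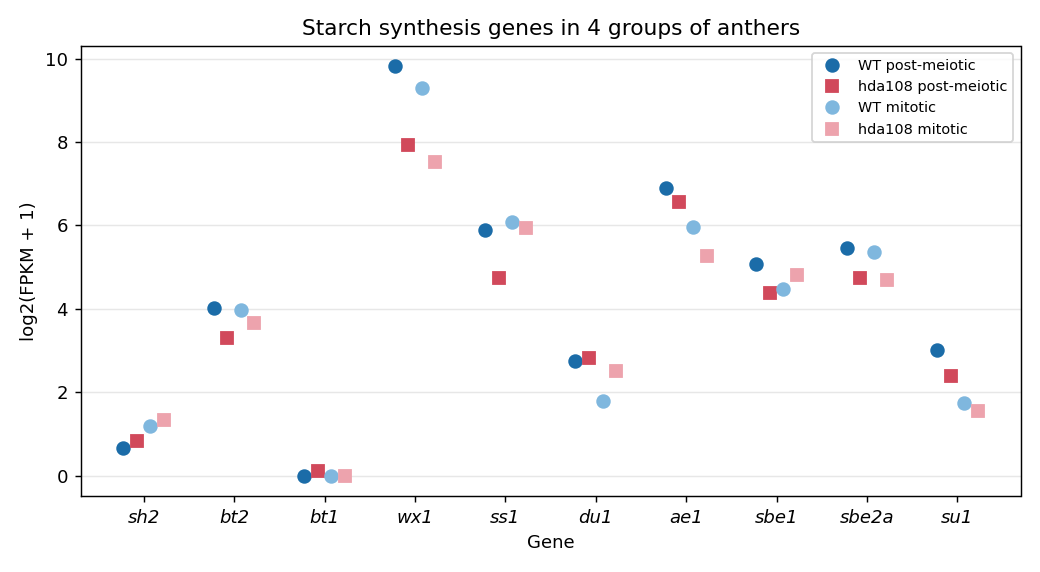
Level of each starch gene as log2(FPKM + 1), with 1 point per group (circles WT, squares hda108, dark post-meiotic, light mitotic), each the authors' single value without an error. wx1 stands highest in all 4 groups, from 183 to 897 FPKM, and bt1 lies at or near 0.

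In order of mean FPKM over the groups the genes ran wx1, ae1, ss1, sbe2a, sbe1, bt2, du1, su1, sh2 and bt1. wx1, ae1, ss1 and sbe2a were within the top 25% of background genes in every group. wx1 also spanned the widest range over the groups, 2.29 log2, followed by ae1 with 1.62 and su1 with 1.46, while sbe1, bt2 and sbe2a spanned 0.69, 0.73 and 0.74.

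The genes with low values are read beside other endosperm genes. Of 5 zein genes, which encode seed storage proteins, 2 were listed at 0 in all groups and the highest value was 0.728 FPKM. o2, the gene of the endosperm regulator Opaque2, reached at most 0.0548 FPKM. Not all genes of these lists were so low. The regulator gene pbf1 had 6.53 to 12.4 FPKM under 1 of its 2 IDs (GRMZM2G146267) and 0.203 to 0.368 FPKM under the other. glb1 of the storage list (GRMZM2G067919) had 0.134 to 2.62 FPKM. The endosperm storage list also held o7, which had 28.4 to 216 FPKM but encodes an acyl-activating enzyme and not a storage protein. Other AGPase genes were more abundant than sh2 and bt2. The small subunit gene Agp2, also named Agpsemzm (GRMZM2G106213), measured 64.1 FPKM in post-meiotic WT, 50.3 FPKM in post-meiotic hda108, 38.3 FPKM in mitotic WT and 49.3 FPKM in mitotic hda108 anthers. agpsl1 (GRMZM2G163437) had 62.9, 33.1, 43.5 and 36.0 FPKM in the same order. A second gene listed as AGP2 (GRMZM2G027955) had 56.7, 17.0, 65.8 and 23.7 FPKM, above in WT at both stages.

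The comparison of genotypes after meiosis asked how these RNAs differed between hda108 and WT anthers. wx1 was 3.70-fold below WT, a difference of -1.88 log2, ss1 was 2.26-fold below WT (-1.15), and bt2, sbe1, sbe2a and su1 were 1.64-fold to 1.73-fold below. ae1 was 1.26-fold below, and sh2, du1 and bt1 were slightly above WT. By the 4-fold rule 0 of the 10 genes were called, against 6.16% of the background genes. By a 2-fold rule (a difference of at least 1) 2 genes were lower, wx1 and ss1, against 12.9% of the background genes lower, and 0 were higher, against 7.43%. The median over the 10 genes was -0.64 log2 and over all background genes -0.03.

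After rescaling, the wx1 difference was -1.28 log2 and the ss1 difference -0.56, where the median of all genes moved to 0.50. ae1 turned from -0.33 to 0.27. The other genes below WT stayed there by 0.09 to 0.17 log2. The median of the 10 genes was then -0.10. The 2-fold rule called 1 lower, wx1, against 7.54% of background genes, and 0 higher, against 19.5%.

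At the mitotic stage wx1 was again below WT, 3.43-fold (-1.77 log2), and it was the gene with the largest difference among the 10. ae1 and sbe2a were 1.63-fold and 1.61-fold below WT, bt2 1.26-fold, su1 1.22-fold and ss1 1.10-fold. du1 was 1.93-fold above WT and sbe1 1.27-fold, and sh2 was above by 0.15 log2. The 4-fold rule called 0 of the 10 genes, against 9.65% of the background genes. The 2-fold rule called 1 lower, wx1, against 20.8%, and 0 higher, against 10.4%. The median over the 10 genes was -0.17 log2, beside -0.02 for all genes.

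Rescaling changed most of these mitotic directions. wx1 was then at -0.43 log2 and was the one gene below WT. ae1, sbe2a, bt2, su1 and ss1 turned to 0.63, 0.65, 0.95, 0.76 and 1.19, and du1 and sbe1 came to 1.83 and 1.63, where the median of all genes was 1.05. The 2-fold rule then called 4 higher, sh2, sbe1, du1 and ss1, against 51.9% of background genes, and 0 lower, against 7.40%. With quantile normalization the wx1 difference was -1.19 after meiosis and -0.14 at the mitotic stage. With median-of-ratios scaling it was -1.88 and -1.82. Under all 4 ways of scaling wx1 lay below WT at both stages, but at the mitotic stage the size ran from -0.14 to -1.82.

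**Figure D2:**
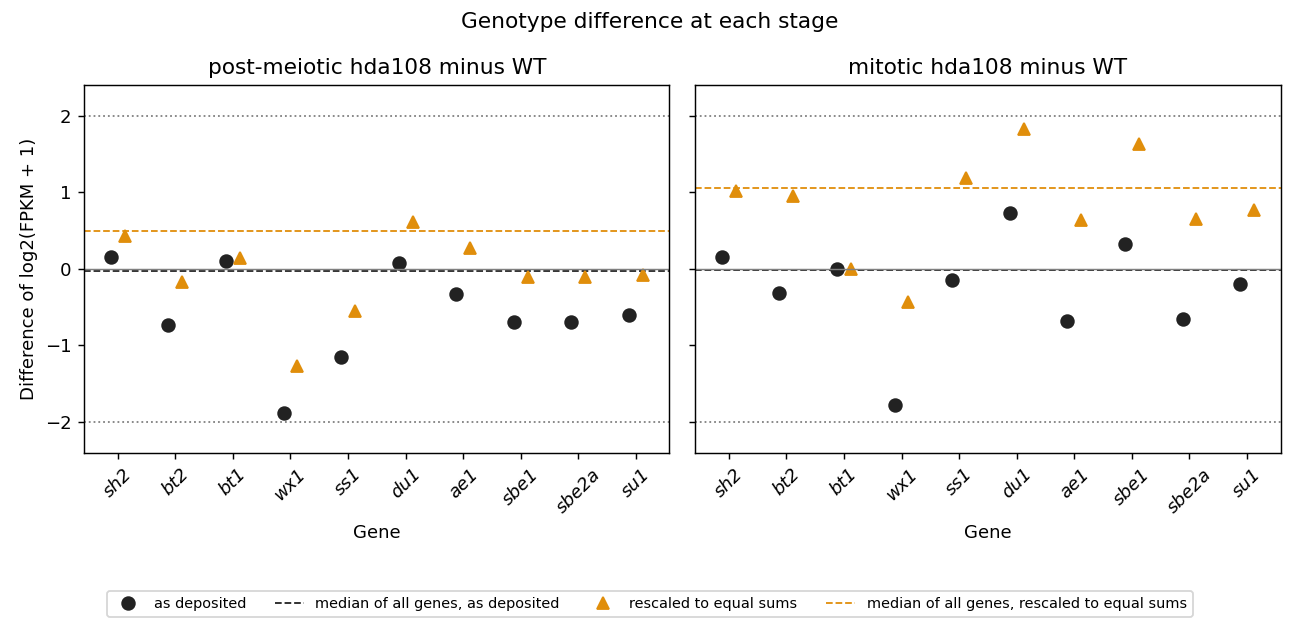
Difference of log2(FPKM + 1) between hda108 and WT for each gene, after meiosis on the left and at the mitotic stage on the right, as deposited (circles) and after rescaling to equal sums (triangles). Dashed lines are the medians of all genes and dotted lines the 4-fold rule; wx1 is the lowest point in both panels, at -1.88 and -1.77 as deposited, and all points lie inside the 4-fold rule.

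The ratio of wx1 to another gene within a group is free of a common scaling factor. These ratios to each other gene were added after the values had been seen. wx1 had 15.5 times the FPKM of ss1 in WT post-meiotic anthers and 9.48 times in hda108, and 9.35 and 3.01 times at the mitotic stage. Relative to ae1 it had 7.65 and 2.61 times the FPKM after meiosis, and 10.3 and 4.88 times at the mitotic stage. The wx1 ratio was smaller in hda108 than in WT for 8 of 8 genes at both stages, bt1 left out because it was listed at 0. It was smaller by 1.64-fold (ss1) to 4.77-fold (sh2) after meiosis and by 2.11-fold (ae1) to 6.61-fold (du1) at the mitotic stage. The post-meiotic sh2 values were only 0.597 FPKM in WT and 0.770 FPKM in hda108. All 8 ratios share the wx1 values, so they are not separate observations. As deposited wx1 had the lowest genotype difference of the starch genes at both stages. The count of 8 of 8 follows from that and is no added support. A shift that differs with abundance is not a common factor either. The 8 genes had means of 1 to 100 FPKM, and wx1 had one of 100 to 1000. As deposited the median mitotic genotype difference was -1.37 log2 for genes of 100 to 1000 FPKM. It was -0.24 for 10 to 100 FPKM and 0.24 for 1 to 10 FPKM. After meiosis these medians were -0.68, -0.16 and 0.10. The part of this shift in the ratios was not tested. With quantile normalization, an alternative chosen after seeing the data, the ratio was smaller in hda108 for 8 of 8 genes after meiosis but for 6 of 8 at the mitotic stage. The ratio to bt2 was then 25.5 in mitotic WT and 25.7 in mitotic hda108 anthers, and that to su1 133 and 158.

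**Figure D3:**
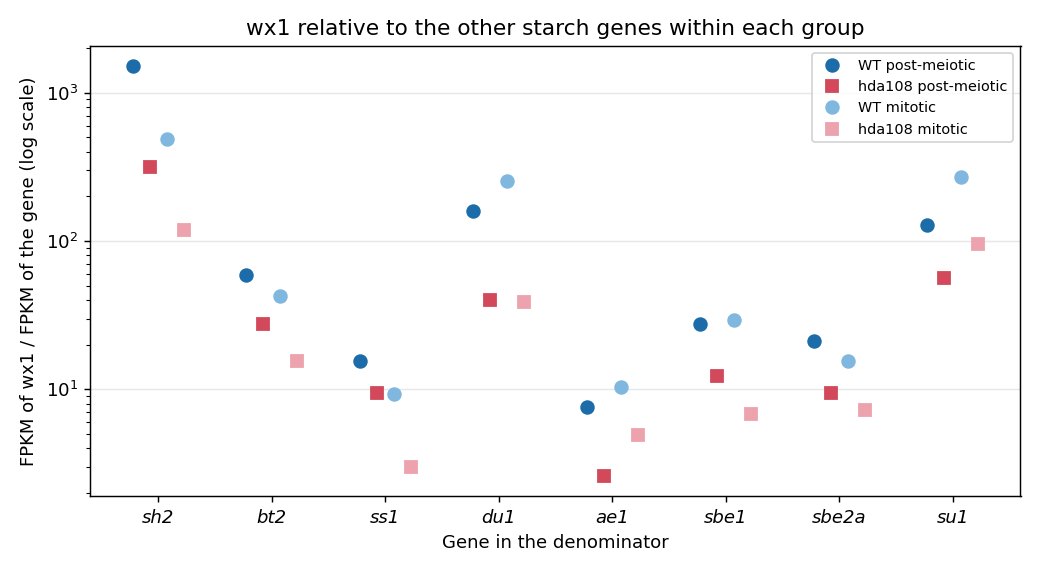
FPKM of wx1 divided by that of each other starch gene within the same group, on a log axis, with 1 point per group. For all 8 genes, as deposited, the hda108 points (squares) lie below the WT points (circles) of the same stage, as for ss1 with 9.48 against 15.5 after meiosis. That order follows from wx1 having the lowest deposited genotype difference at both stages.

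The make-up of the starch gene RNA differed accordingly. The 10 genes summed to 1176 FPKM in post-meiotic WT and 427 FPKM in post-meiotic hda108 anthers, and to 838 and 353 FPKM at the mitotic stage. wx1 made up 76.3% of that sum in WT and 56.9% in hda108 post-meiotic anthers, and 74.9% and 51.8% in mitotic anthers. The branching enzyme genes made up 16.4% and 32.5% after meiosis and 14.6% and 25.4% at the mitotic stage. The soluble synthase genes held 5.40% and 7.41%, then 8.30% and 18.6%. Without wx1 the sum was 1.51-fold below WT after meiosis and 1.24-fold below at the mitotic stage, against 2.76-fold and 2.37-fold with it. After rescaling, the sum with wx1 was 1.81-fold below WT after meiosis but 1.07-fold above at the mitotic stage. Without wx1 it was then 1.01-fold and 2.05-fold above WT.

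**Figure D4:**
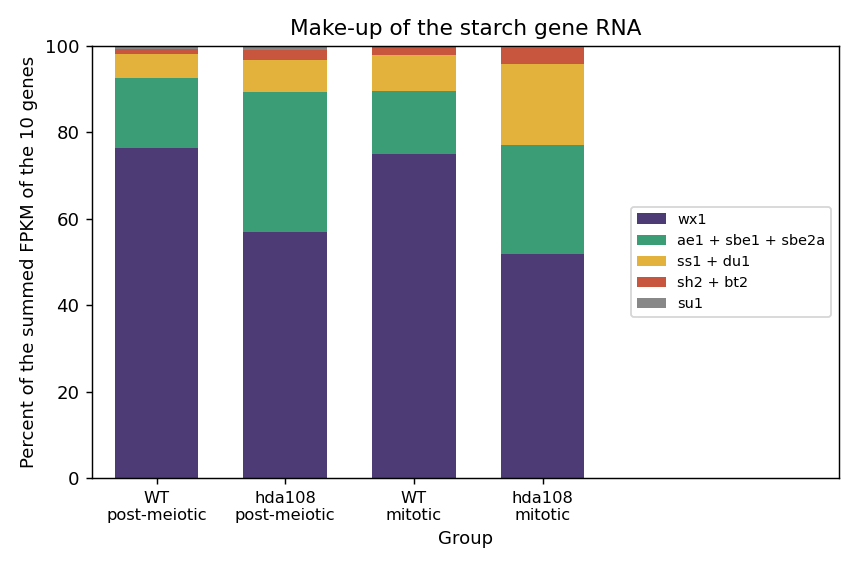
Share of the summed FPKM of the 10 starch genes held by each enzyme class, in percent, with 1 stacked bar per group; bt1 is too small to see. wx1 holds 76.3% and 74.9% in the WT groups and 56.9% and 51.8% in the hda108 groups.

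wx1 is an abundant RNA, and abundant RNAs as a class lay below WT in the mutant. Among the 1388 genes with a mean of 100 to 1000 FPKM, the median genotype difference was -0.68 log2 in post-meiotic and -1.37 in mitotic anthers, or -0.07 and -0.03 after rescaling. Most pollen markers also lay below WT as deposited. Of 19 matched pollen genes, 15 lay below WT and 4 above it after meiosis, and 16 and 3 at the mitotic stage. By the 4-fold rule 10 were lower in hda108 after meiosis and 8 at the mitotic stage, and 0 were higher. Of background genes 4.47% and 8.12% were lower. After rescaling 5 and 2 of the pollen genes were lower, against 2.72% and 2.47%. Many of these pollen genes were abundant themselves, and the share of lower genes was larger among abundant genes. Of all genes with a mean of 100 to 1000 FPKM, 25.1% and 34.4% were lower by that rule as deposited. After rescaling 17.4% and 13.3% of that class were lower. Some pollen genes lay above or below that class. Without doubtful symbol matches 17 pollen genes remained, and the counts of lower ones were the same. As deposited the 19 pollen genes summed to 24438 FPKM in post-meiotic WT and 4555 FPKM in post-meiotic hda108 anthers. At the mitotic stage the sums were 39674 and 6286 FPKM, and no member was at 0 in all groups. The pollen sums were thus higher at the mitotic stage in both genotypes, where wx1 as deposited was lower. Of the 6 tapetum and pollen wall genes 1 was higher in post-meiotic and 1 lower in mitotic hda108, where 1.68% and 8.12% of background genes were. After rescaling the mitotic call was lost and the post-meiotic one stayed, against 3.38% higher. Their deposited sums were 1814 and 530 FPKM, then 1014 and 422 FPKM. xyl1 (GRMZM2G170839) alone held 1676 and 445 FPKM, then 926 and 366 FPKM of them, and 2 of the 6 genes lay above WT at each stage. The green tissue list of 13 genes summed to 2934 and 2864 FPKM, then 744 and 579 FPKM. As deposited 0 of these genes passed the 4-fold rule between genotypes, where 6.16% and 9.65% of background genes did. After rescaling 2 of them were higher in mitotic hda108 anthers, against 13.7% of background genes, and their median there moved from 0.04 to 1.29 log2. The part of these marker levels in the wx1 result was not tested, and in whole anthers fewer cells of a type and less RNA per cell cannot be told apart.

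The genes whose profile over the 4 groups was most like that of wx1 were sought among 1817 named genes with at least 5 FPKM in some group. Likeness was the largest deviation between 2 profiles of log2(FPKM + 1), each centred on its own mean. The nearest were AUX35 (GRMZM2G167794) with a deviation of 0.12 log2, lpa1 (GRMZM5G820122) with 0.13 and a gene listed as GP (GRMZM2G135893) with 0.15. lpa1, for example, measured 87.6, 26.5, 64.9 and 20.2 FPKM in post-meiotic WT, post-meiotic hda108, mitotic WT and mitotic hda108 anthers. With only 4 values a gene, such likeness is a description.

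The comparison of stages asked what differed between mitotic and post-meiotic anthers. In WT, su1 was furthest below its post-meiotic value at the mitotic stage (-1.26 log2), followed by du1, 2.31-fold below (-0.95), ae1, 1.93-fold (-0.94), sbe1, 1.52-fold, and wx1, 1.43-fold. sbe2a and bt2 differed by -0.08 and -0.05 log2. ss1 and sh2 were above their post-meiotic value, by 0.21 and 0.51 log2. The 4-fold rule called 0 of the 10 genes, against 2.81% of the background genes, and the 2-fold rule called 1 lower, su1, against 11.3%, and 0 higher, against 5.76%. The median of all genes was itself -0.31 log2, and that of the 10 genes -0.30. After rescaling the median of all genes was -0.51, and ss1 turned to -0.05. The 2-fold rule then called 3 lower, su1, ae1 and du1, against 17.1%, and 0 higher, against 4.04%. With median-of-ratios scaling it was 0.04, and bt2 and sbe2a turned to 0.38 and 0.36. With quantile normalization bt2 and sbe2a lay at 0.22 and 0.01. su1, ae1, du1, sbe1 and wx1 lay below their post-meiotic value and sh2 above it under all 4 ways of scaling, wx1 by as little as 0.06 log2.

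In hda108, ss1 was 2.37-fold above its post-meiotic value at the mitotic stage (1.21 log2), and it was the gene with the largest positive stage difference. sh2, sbe1 and bt2 were above by 0.52, 0.43 and 0.37 log2. ae1 was 2.48-fold below (-1.29) and su1 2.24-fold (-0.86), and wx1, du1 and sbe2a were below by 0.41, 0.29 and 0.05 log2. The 4-fold rule called 0 of the 10 genes, against 3.95% of the background genes. The 2-fold rule called 1 higher, ss1, against 3.41%, and 1 lower, ae1, against 15.6%. The median of the 10 genes was -0.08 log2, beside -0.27 for all genes and 0.11 for all genes after rescaling. Rescaling turned wx1, du1 and sbe2a to 0.06, 0.11 and 0.41 and left ss1 at 1.69 and ae1 at -0.83. The 2-fold rule then called 1 higher, ss1, against 7.02%, and 0 lower, against 10.2%. ss1 and ae1 kept their directions under all 4 ways of scaling. The stage comparisons share their libraries with the genotype comparisons, so these values are not separate support for them.

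**Figure D5:**
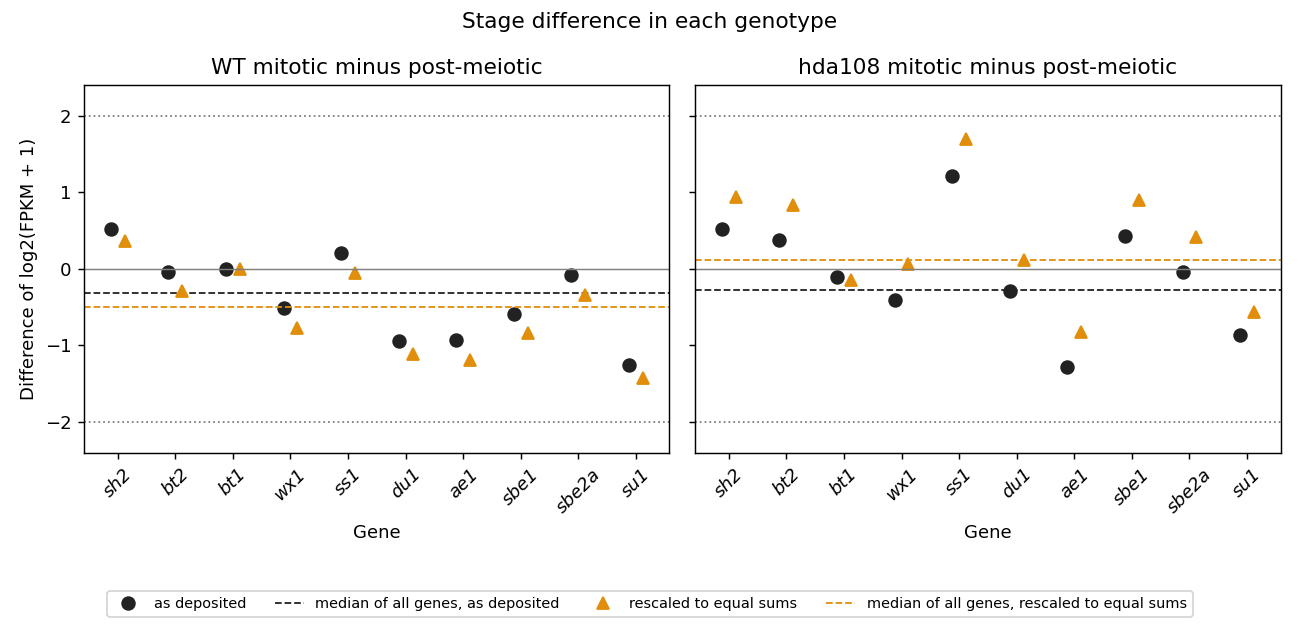
Difference of log2(FPKM + 1) between the mitotic and the post-meiotic stage for each gene, in WT on the left and in hda108 on the right, as deposited (circles) and after rescaling (triangles), with medians of all genes (dashed) and the 4-fold rule (dotted). ss1 is the highest deposited point in hda108, at 1.21, while su1 is the lowest in WT, at -1.26.

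Ratios within a group also compare the stages free of a common factor. ae1 had 2.75 times the FPKM of sbe2a in WT post-meiotic and 3.59 times in hda108 post-meiotic anthers, but 1.51 and 1.495 times in WT and hda108 mitotic anthers. Here the stages stood apart and the mitotic values lay close together. Relative to sbe1, ae1 had 3.61 and 4.69 times the FPKM after meiosis and 2.85 and 1.39 times at the mitotic stage. Relative to ss1, du1 was at 0.0981 in WT and 0.236 in hda108 after meiosis and at 0.0367 and 0.0780 at the mitotic stage. With quantile normalization the mitotic values were 0.0555 in WT and 0.0549 in hda108. su1 was at 0.0598 of ae1 in WT and 0.0462 in hda108 after meiosis, and at 0.0385 and 0.0512 at the mitotic stage. With quantile normalization it was at 0.0635 and 0.0333, then at 0.0577 and 0.0413, below WT at both stages.

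Other genes of starch and sugar metabolism were matched by symbol, 39 in 7 lists. In hda108 post-meiotic anthers 1 of them was higher and 0 were lower by the 4-fold rule, where 1.68% of background genes were higher and 4.47% lower. At the mitotic stage 1 was higher and 5 were lower, where 1.52% were higher and 8.12% lower. After rescaling 3 were higher and 0 lower there, against 13.7% and 2.47% of background genes. Between stages 1 was higher and 2 were lower in WT, where 1.35% and 1.46% of background genes were, and 0 were higher and 3 lower in hda108, where 1.02% and 2.94% were. Their median genotype differences were -0.28 and -0.08 log2, and 0.19 and 0.64 after rescaling.

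In starch synthesis itself none of the 3 other AGPase, 3 starch synthase and 6 branching or debranching genes passed the 4-fold rule in any of the 4 comparisons as deposited. Of background genes 6.16% passed it between genotypes after meiosis and 9.65% at the mitotic stage. Between stages 2.81% passed it in WT and 3.95% in hda108. For so few genes a count of 0 is close to these shares. Of the 6 branching or debranching genes, a second gene listed as ae1 (GRMZM2G039942) was listed at 0 in all groups and could not pass. The debranching enzyme gene iso3 (GRMZM2G150796) measured 64.9 FPKM in post-meiotic WT and 19.3 FPKM in post-meiotic hda108 anthers, against 52.8 and 30.1 FPKM at the mitotic stage, many times the level of su1. iso2 (GRMZM2G090905) had 6.43 to 11.3 FPKM. GBSSIIa (GRMZM2G008263), a second granule-bound synthase gene, had 5.27 to 9.63 FPKM, far below wx1. The synthase gene zSSIIa, also sugary2 (GRMZM2G348551), had 5.61 and 5.11 FPKM after meiosis and 1.08 and 1.86 FPKM at the mitotic stage. The third match, listed as ss2 and sus1 (GRMZM2G152908, 2.95 to 7.31 FPKM), carries a sucrose synthase name and was counted in both lists. The plastid phosphate translocator gene ppt1 (GRMZM2G047404) had 69.3 and 47.4 FPKM after meiosis and 20.1 and 30.5 FPKM at the mitotic stage.

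Of the genes that break starch down, pho1, a starch phosphorylase gene (GRMZM2G074158), had 8.87 to 21.8 FPKM. The amylase gene Amy2, also listed as BMY1 (GRMZM2G058310), measured 1205 FPKM in post-meiotic WT, 679 FPKM in post-meiotic hda108, 130 FPKM in mitotic WT and 30.8 FPKM in mitotic hda108 anthers. It was lower at the mitotic stage in both genotypes, with differences of -3.20 log2 in WT and -4.42 in hda108, and lower in mitotic hda108 than in mitotic WT. That last difference of -2.04 log2 became -0.72 after rescaling.

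Sucrose cleavage supplies the glucose for starch. The cell wall invertase gene incw1 (GRMZM2G139300) was higher in hda108 at both stages, with 1.68 and 13.9 FPKM after meiosis and 1.94 and 12.98 FPKM at the mitotic stage. mn1, another cell wall invertase gene (GRMZM2G119689), was lower at the mitotic stage, with 16.5 and 3.36 FPKM. The soluble invertase genes IVR1 (GRMZM2G394450), with 364 and 42.2 FPKM, and ivr2 (GRMZM2G089836), with 166 and 23.1 FPKM, were lower there too, and ivr2 was higher at the mitotic than at the post-meiotic stage in WT. incw3 (GRMZM2G123633) was lower at the mitotic stage in both genotypes, with 202 and 39.1 FPKM in WT and 158 and 18.4 FPKM in hda108, and the fructokinase gene frk2 (GRMZM2G051677) in hda108, with 144 and 29.7 FPKM. After rescaling the frk2 stage difference was -1.78 log2, short of the 4-fold rule. The mitotic genotype differences of mn1, IVR1 and ivr2 were then -0.85, -1.75 and -1.48 log2, also short of it, while those of incw1 were 3.02 after meiosis and 3.41 at the mitotic stage.

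Among 12 regulators of endosperm starch and storage genes 7 stayed under 1 FPKM in every group and 5 reached it. Of all 39604 genes 24360 reached it in some group, so a large share of all genes stayed under it too. EREB156 (GRMZM2G421033) measured 70.5 FPKM in post-meiotic WT and 27.2 FPKM in post-meiotic hda108 anthers and was lower in the mutant at the mitotic stage, with 84.1 and 10.3 FPKM, a difference of -2.91 log2 that became -1.64 after rescaling, short of the 4-fold rule. The Opaque2-related genes ohp1 (GRMZM2G016150) and ohp2 (GRMZM2G007063) had 14.5 to 23.1 and 9.99 to 25.4 FPKM.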

How the data were processed

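Total RNA was depleted of ribosomal RNA and sequenced with strand information, per the labels' protocols. Per the submitters' processing notes the build was B73 RefGen_v3, and the tools included TopHat2 2.0.13, Trimmomatic 0.33, CASAVA 1.8 and Cuffdiff 2.2.1, each without a stated role. The authors deposited FPKM, and the file headers name 1 column for each group. The sources used here do not say how libraries were combined or groups scaled, and depth is unknown. The columns headed homo were read as hda108, the labels' second genotype.

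With 1 value a group the size rule fixed for that case replaced limma: a difference of at least 2 in log2(FPKM + 1), among genes that reached 1 FPKM in some group. Alternatives were a pseudocount of 0.1, 3 other scalings, no filter and a 2-fold rule. Genes of 7 pathway and 4 marker lists were matched by symbol or synonym to RefSeq names of Zm-B73-REFERENCE-NAM-5.0, which holds 8 of the 10 starch gene IDs; the names sbe2a and su1 came with the gene list. Matches that share only a symbol stayed in, and an alternative added later dropped them. Named genes are the 10, list genes past the size rule, the 2 most abundant of each list and the 3 profiles nearest to wx1, the gene of largest range. Marker lists are given as counts and sums, and other genes in the text were chosen after their values were seen. Members and lists were chosen with earlier results of these data known. A planned count of promoter motifs was not run. Python 3.11.15, numpy 2.4.6, pandas 2.3.3 and matplotlib 3.10.9 were used, and the computations were tested on simulated data.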

Additional observations from a re-analysis of the deposited data

Results flagged for a closer look

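For sbe1 the genotype difference had opposite signs at the 2 stages, -0.69 log2 in post-meiotic and 0.33 in mitotic anthers, and the stage difference had opposite signs in the 2 genotypes, -0.59 in WT and 0.43 in hda108. For bt2 the stage difference was -0.05 in WT and 0.37 in hda108. Each rests on 1 value per group, and the difference between the differences was not tested. The RefSeq table gives the ID of sbe1 to 2 genes. The signs of sbe1 stayed opposite under all 4 ways of scaling in both contrasts, and those of bt2 did so as deposited and after rescaling to equal sums, at -0.29 and 0.83, but not with the other 2 scalings, where both were positive.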

How the results depend on the processing

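No paired analysis was possible because the columns hold 1 value per group with no replicate number, and leaving out a replicate could not be run for the same reason. The counts of starch genes past the 4-fold rule stayed at 0 in the 4 comparisons under the other pseudocount, the 3 other scalings and no filter. The 2-fold rule called 2 genes after meiosis and 1 at the mitotic stage between genotypes, and 1 in WT and 2 in hda108 between stages. Together with rescaling, chosen after seeing the data, it called 1 lower, 4 higher, 3 lower and 1 higher in that order. Of the 6 ratios between fixed pairs of genes 1 was smaller in hda108 at both stages as deposited and 2 with quantile normalization. In the same order the median of the 10 genes was -0.10, 0.86, -0.56 and 0.26 log2 after rescaling to equal sums, and -0.41, 0.042, -0.18 and 0.23 with quantile normalization. The median-of-ratios scaling moved the stage medians to -0.030 in WT and 0.20 in hda108, and a pseudocount of 0.1 moved the latter to -0.20. Of the 40 single differences 10 changed sign after rescaling, 8 with quantile normalization and 5 with median-of-ratios scaling. Genes of the other starch and sugar lists past the rule in mitotic anthers numbered 6 between genotypes, 3 after rescaling and 2 with quantile normalization. Of background genes 9.65% passed it as deposited, and 13.7% were higher and 2.47% lower after rescaling. Among all 39604 genes, 5 starch genes in place of 4 lay in the top 25% of every group. The causes were not tested. Depth is unknown, so no counting limit can be given for sh2 and bt1.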
